A study of Mus musculus with 16 samples.

Results

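The 4 arrays described here each hold the amplified RNA of 1 cell from the caudal ganglionic eminence (CGE) of the embryonic mouse brain. They are the arrays titled Cell_1 to Cell_4, 4 of 16 in the series, and are called cell 1 to cell 4. The cells came from OF1 mice at embryonic day 14 and were trapped in a microfluidic rotary mixer, where their RNA was reverse-transcribed for 25 min before 40 cycles of template-switching PCR. The labels do not give the animal of a cell, so nothing here tells cells of 1 litter from cells of different litters. Set beside them were 3 microfluidic arrays, called mixer arrays, for which 10 pg of RNA from the forebrain of adult B6.C3Sn females was carried through the same mixer in 7 nL with 20 min of reverse transcription and 40 cycles. They were also set beside 3 explant arrays with 5 µg of unamplified embryonic day 14 RNA, labelled CGE in one field and telencephalon in another. The 3 control arrays, used in a few counts, held 15 µg of unamplified adult forebrain RNA. Each cell is 1 array, so no value of a single cell has a replicate. Cells 1 to 3 were scanned in 1 session and cell 4 in a session of its own, per the file headers, so cell 4 and its session cannot be told apart. The mixer, explant and control arrays had other sessions, with scanner software versions 2.2.4, 2.5.1 and 2.3.0, against 2.4.4 for the cells. A difference between the cells and these arrays therefore cannot be told apart from the session or software.

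The CGE is a ventral swelling of the embryonic forebrain in which dividing progenitors give rise to GABAergic interneurons that then migrate into the cortex and hippocampus. Transcription factors of the Dlx family are shared by all ganglionic eminences, while Nr2f2, Sp8 and Prox1 mark CGE-derived lineages and Nkx2-1 and Lhx6 mark those of the medial ganglionic eminence (MGE). Young migrating neurons carry cytoskeletal proteins such as doublecortin and neuronal β-tubulin, and subtype peptides such as Vip and Sst are known mainly from later stages.

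All signal in the cells passed through a PCR that starts from an added end sequence. The primer that supplies this end is shown because every transcript measured in a cell had to acquire it. Capitals mark the 23 bases that the PCR primer repeats out of 30.

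template-switching primer: AAGCAGTGGTATCAACGCAGAGTacgcggg

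Each array carried 24109 gene probes, of which 22206 to 23275 were measured in a cell. A probe was called detected where its foreground intensity exceeded the local background by more than 2 background SDs. By this rule 44.7% of probes were detected in cell 1, 52.5% in cell 2, 35.5% in cell 3 and 26.5% in cell 4. The mean was 39.8% ± 11.2 in the cells (SD, n = 4), against 47.6% ± 8.61 on the mixer arrays (n = 3). Blank spots passed the same limit at 0% to 2.11% in the cells. The detected share followed brightness: the median net intensity of gene probes was 1570 in cell 1, 1826 in cell 2, 1000 in cell 3 and 797 in cell 4. Between 690 and 1310 gene spots per cell were saturated, so the highest levels below are lower bounds.

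Detection was then compared between the cells. Of 19648 probes measured in all 4 cells, 4127 (21.0%) were detected in all 4, 2938 (15.0%) in 3, 2419 (12.3%) in 2, 3038 (15.5%) in 1 and 7126 (36.3%) in none. Among the 8395 probes detected in some but not all cells, 5154 (61.4%) were detected in cell 2 alone, in cells 1 and 2, or in cells 1 to 3, that is, in the cells with the highest detected shares. Sets that run against this order were smaller: 315 probes were detected in cell 4 alone, 59 in cells 3 and 4 and 103 in cells 1 and 4. The count in all cells depended on the limit, since 13224 probes exceeded the 95th percentile of blank spots in all 4 cells. Without cell 4, 6443 probes were detected in all remaining cells.

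**Figure D1:**
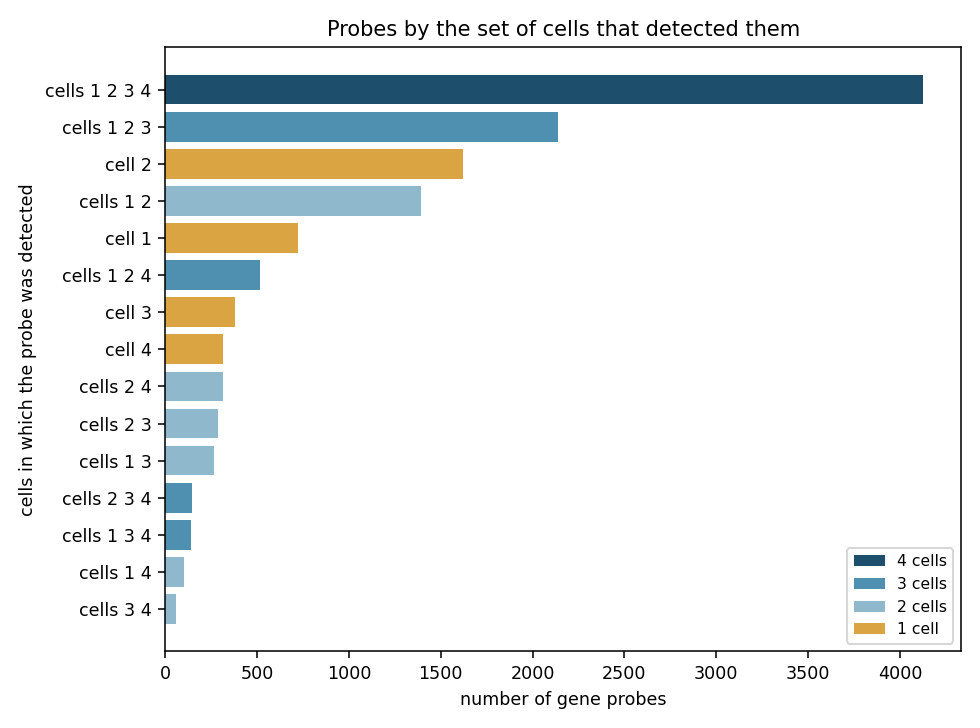
Number of gene probes (horizontal axis) detected in each set of cells (vertical axis); colour gives the number of cells. The set of all 4 cells holds 4127 probes, and the next sets, cells 1 to 3 (2141), cell 2 alone (1621) and cells 1 and 2 (1392), follow the order of the detected shares.

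The probes shared by more cells were also the probes detected on other arrays. From probes detected in 0, 1, 2, 3 and 4 cells, 8.08%, 12.7%, 12.5%, 18.0% and 26.3% were detected on all 3 explant arrays, and 14.6% of all these probes. On all 3 mixer arrays, which hold adult RNA, the shares were 3.71%, 12.7%, 36.7%, 66.0% and 87.6%. On the unamplified control arrays they were 46.9%, 58.7%, 63.7%, 70.6% and 74.4%. Detection in all 4 cells therefore came with detection on the mixer arrays in most cases, although their RNA was of another age and strain.

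Families of genes used mainly in other tissues served as a measure of the background of the detection call. Odorant receptors, the chemoreceptors of the olfactory epithelium, had 716 probes, and their detected share was 56.3% in cell 1, 68.0% in cell 2, 46.2% in cell 3 and 33.6% in cell 4. These shares exceeded those of all gene probes in every cell. On the mixer arrays 50.1% to 65.2% of odorant receptor probes were detected, on the explant arrays 6.30% to 13.9% and on the unamplified control arrays 49.4% to 54.2%. Over all gene probes the shares were 37.9% to 54.0% on the mixer arrays, 14.8% to 29.0% on the explant arrays and 64.7% to 69.3% on the control arrays. Mixer arrays 2 and 3 measured only 405 and 397 of the odorant receptor probes. Vomeronasal receptors (118 probes) were detected at 14.7% to 42.3% in the cells, keratin-associated proteins of hair (40 probes) at 32.4% to 53.8% and defensins, antimicrobial peptides of epithelia (29 probes), at 25.0% to 42.9%. The share of keratin-associated proteins exceeded that of all gene probes in every cell, whereas that of vomeronasal receptors was lower in every cell. Defensins were lower in cells 1, 2 and 4 and had 35.7% against 35.5% in cell 3.

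Cytoplasmic ribosomal protein genes, which every growing cell uses, were detected less widely than on the explant arrays. Of their 86 probes 47.6% were detected in cell 1, 43.5% in cell 2, 44.7% in cell 3 and 39.5% in cell 4, against 74.4% to 87.3% on the explant arrays and 89.4% to 91.8% on the control arrays. Genes of oxidative phosphorylation (86 probes) were detected at 38.3%, 43.0%, 28.6% and 19.7% in cells 1 to 4. In cells 1 to 3 the share of odorant receptors was thus the higher of these, and in cell 4 that of ribosomal proteins. The share of vomeronasal receptors was below that of ribosomal proteins in every cell. Many detected probes are therefore given below beside the level that the mixer or explant arrays had.

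**Figure D2:**
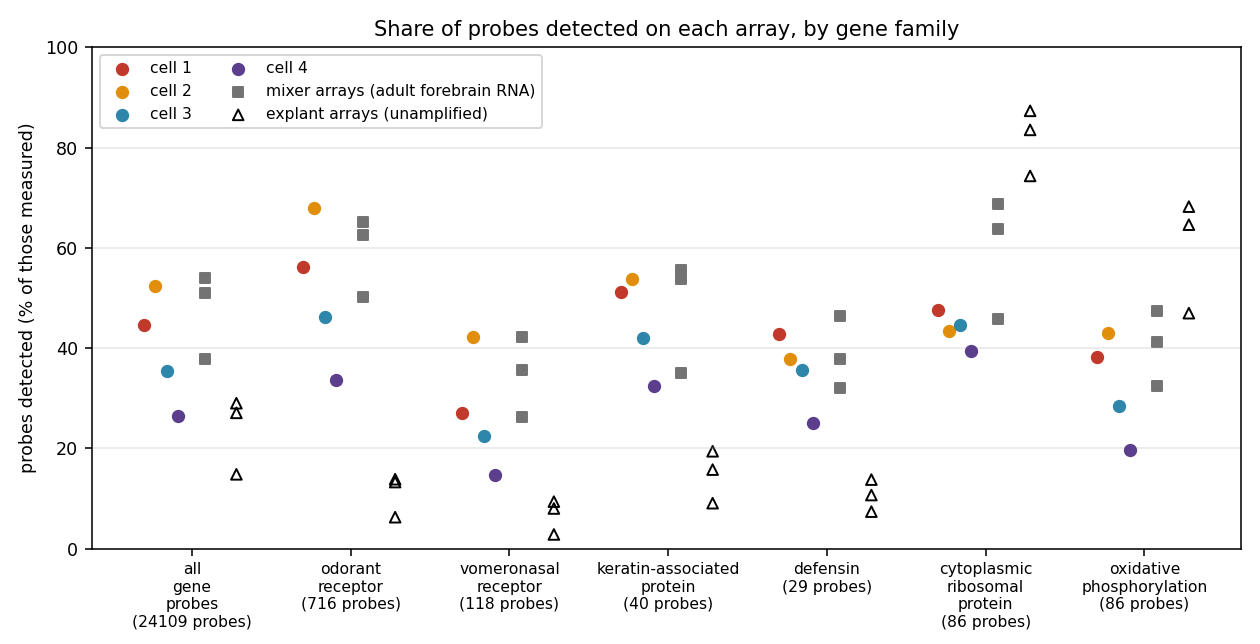
Share of measured probes detected (vertical axis, percent) on each array, by gene family (horizontal axis), with a point per array for the 4 cells, the 3 mixer arrays and the 3 explant arrays. Odorant receptors lie between 33.6% and 68.0% in the cells, above all gene probes in each cell. On the explant arrays they lie at or under 13.9%, where all gene probes lie at 14.8% to 29.0%. Vomeronasal receptors lie below all gene probes in each cell, at 14.7% to 42.3%. Ribosomal protein genes are detected at 74.4% or more on the explant arrays and at 39.5% to 47.6% in the cells.

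Measurements on the arrays themselves bear on how far a level can be read. Gapdh, a glycolytic enzyme, was printed as 257 spots. Its log2 net intensity varied between these spots with an SD of 1.82 in cell 1, 1.85 in cell 2, 2.12 in cell 3 and 1.58 in cell 4. The SD was 1.88 to 2.04 on the mixer arrays and 0.835 to 1.54 on the explant arrays. Saturated spots were kept in these SDs, 83 in cell 1, 114 in cell 2, 10 in cell 3 and 4 in cell 4. Further, 1788 genes had at least 2 probes. Across these genes, which are not independent replicates, the levels of the 2 probes correlated at r = 0.05 in cell 1 (1684 genes), 0.03 in cell 2, 0.01 in cell 3 and 0.04 in cell 4. The same correlation was 0.25 to 0.28 on the explant arrays, 0.18 to 0.20 on the control arrays and 0.03 to 0.05 on the mixer arrays. The level of the same probe in cell 1 and cell 2, in contrast, correlated at r = 0.82 over 1604 of these genes. Levels in the cells thus went with the probe more than with the gene, and levels below are compared between arrays for a given probe.

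**Figure D3:**
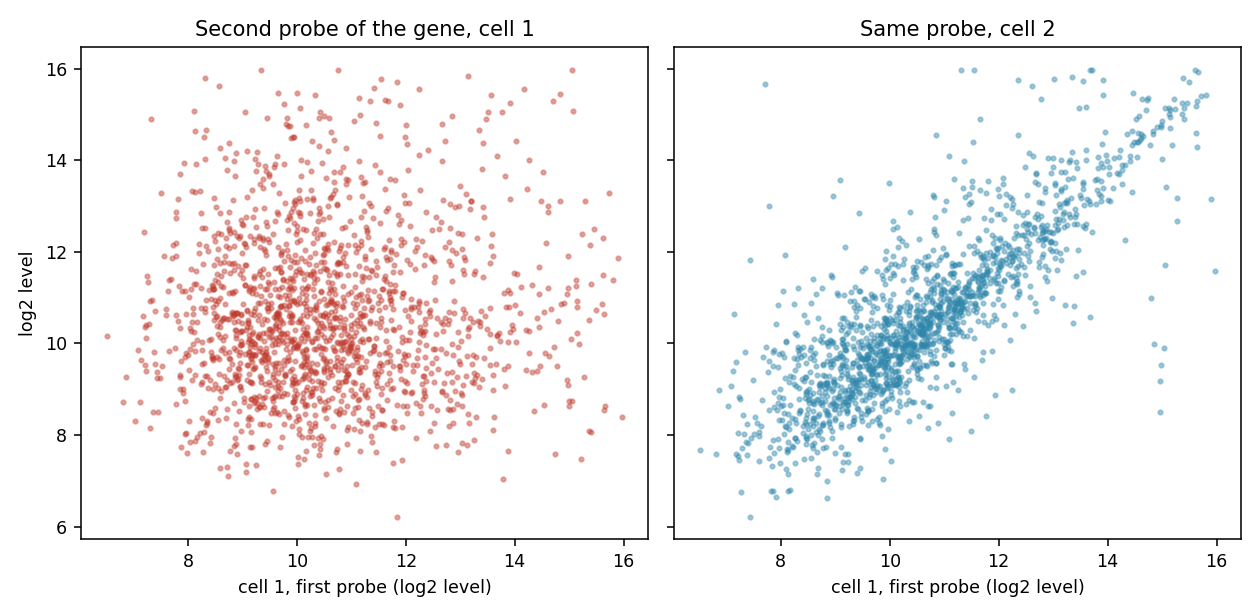
Log2 level of the first probe of a gene in cell 1 (horizontal axis of both panels) against the second probe of the same gene in cell 1 (left) and against the same probe in cell 2 (right); a point is a gene with at least 2 probes. The left panel shows no visible relation (r = 0.05) and the right a clear one (r = 0.82).

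Pairs of cells were compared on normalised log2 levels, counting as different a probe detected in at least 1 cell of the pair whose levels lay 2 log2 units (4-fold) or more apart. Cell 1 and cell 2 differed at 9.29% of 12769 probes, cell 1 and cell 3 at 9.76% of 10844, and cell 2 and cell 3 at 14.9% of 11985. Pairs with cell 4 differed more often: cell 1 and cell 4 at 22.2% of 10964 probes, cell 2 and cell 4 at 22.2% of 11910, and cell 3 and cell 4 at 23% of 9145. Pairs of mixer arrays, made from a common kind of RNA, differed at 8.93% to 10.2%. With no background correction the mean share was 4.95% among cells 1 to 3 and 10.8% with cell 4, and with median centring it was 16.5% and 29.4%.

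Repeated spots of a single gene gave a measure of such differences within a gene. The net intensities of unsaturated Gapdh spots at the same position, after removing the median difference of the pair, lay 4-fold or more apart in 17.2% of 134 spots for cell 1 and cell 2, 11.3% of 168 for cell 1 and cell 3 and 17.2% of 134 for cell 2 and cell 3. With cell 4 the shares were 27.5% of 167 spots for cell 1, 29.8% of 131 for cell 2 and 29.9% of 234 for cell 3. Their means were 15.2% among cells 1 to 3 and 29.1% with cell 4, against 16.5% and 29.4% of gene probes when these too were only median-centred. The 2 measures still differ. Gene probes were corrected by normexp, averaged per probe, kept saturated spots and had to be detected in either cell, unlike the Gapdh spots. By pair, the share of Gapdh spots was the higher in 2 of 6 pairs of cells against median-centred gene probes, and in 6 of 6 against quantile-normalised ones. On the mixer arrays the Gapdh shares were 6.21% to 8.02%, against 11.9% to 14.7% of median-centred gene probes.

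The second probes of genes gave a further reading. Over the 6 pairs, the first probe of a gene was 4-fold or more apart in 991 comparisons, and the second probe of that gene was 4-fold apart the same way in 86, 4-fold apart the other way in 59 and under 4-fold in 846. The correlation of the 2 probes' differences, across genes, was between -0.02 and 0.07. Differences between cells named below therefore rest on single probes, and a second probe is given where it exists in a marker list.

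**Figure D4:**
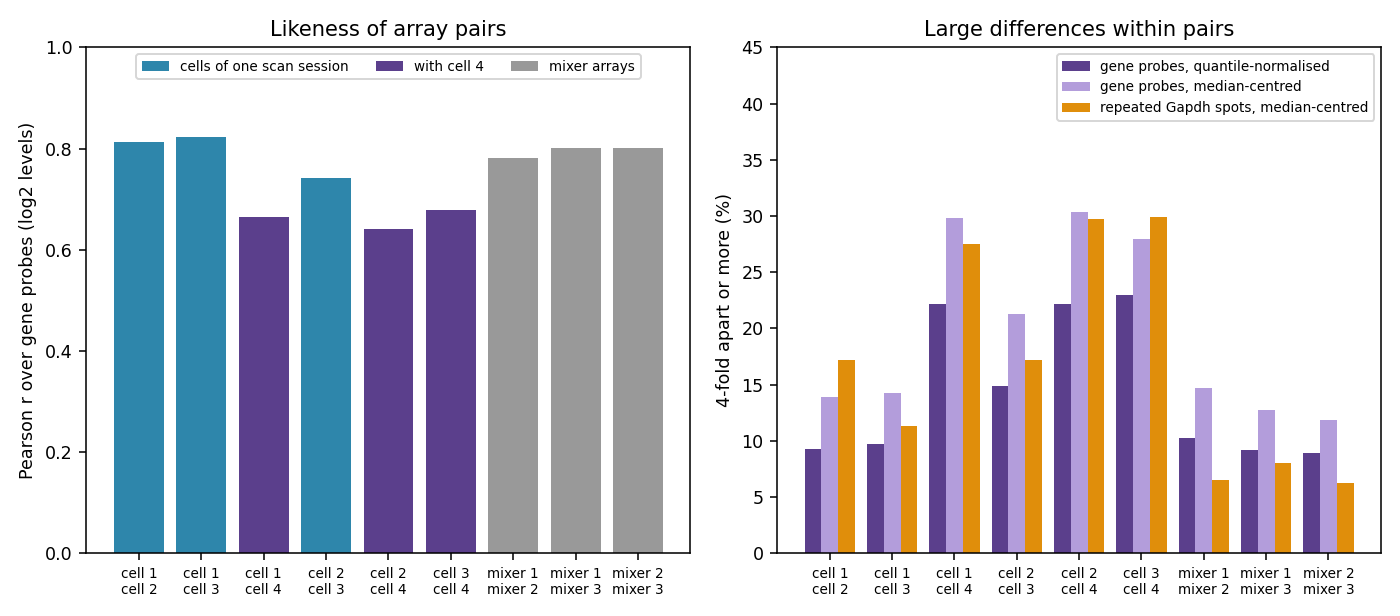
Left, Pearson r of log2 levels over gene probes for each pair of cells and of mixer arrays (bars start at 0). Right, percent of gene probes detected in either array, quantile-normalised (dark purple) or median-centred (light purple), and of repeated, median-centred Gapdh spots (orange) that lay 4-fold or more apart in the same pairs. Pairs with cell 4 have r of 0.64 to 0.68 and pairs of cells 1 to 3 have 0.74 to 0.82, and the orange bars of the pairs with cell 4 (27.5% to 29.9%) lie close to the light purple ones.

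The likeness of whole profiles within the cells was set against that within the mixer arrays. Pearson's r over gene probes was 0.81 for cells 1 and 2, 0.82 for cells 1 and 3, 0.74 for cells 2 and 3, 0.66 for cells 1 and 4, 0.64 for cells 2 and 4 and 0.68 for cells 3 and 4. The mean over the 6 pairs was 0.727 in the cells, against 0.794 over the 3 pairs of mixer arrays, a difference of -0.07 (exact two-sided permutation of 7 arrays, p = 0.457, adjusted over 3 measures 0.571). Of the probes detected in either array of a pair, 55.3% were detected in both on average in the cells and 63.8% on the mixer arrays (exact p = 0.571). The difference in detected share, -7.86 percentage points, gave an exact p of 0.343. This design allows no p below 0.0571, and the p-values measure only the spread between these arrays. Without cell 4 the differences were -0.00134 in r and -0.131 percentage points in shared probes.

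The mean r of a cell with the mixer arrays was close to its mean r with the other cells. It was 0.767 with the other cells and 0.753 with the mixer arrays for cell 1, 0.731 and 0.738 for cell 2, 0.748 and 0.718 for cell 3, and 0.661 and 0.646 for cell 4. For cell 2 the mean r was thus the higher with the mixer arrays.

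The labelled cell type was checked against marker lists. Tubb3, Dcx and Dlx2 were detected in all 4 cells, Sp8 and Prox1 in cells 1 to 3 and Nr2f2 in cell 2, but markers of other lineages were detected as well, as given below. In the lists a gene was counted as detected in a cell where any of its probes was. Over all named genes the share detected was 47.4% in cell 1, 55.2% in cell 2, 37.8% in cell 3 and 28.6% in cell 4, with 22.7% detected in all 4 cells and 33.6% in none. Genes were also counted where the level lay at least 2 log2 units above every mixer array, called below the excess over adult RNA. The mixer arrays used the same kind of device but were scanned in another session, and this excess cannot be told apart from that. By that count 1.52% of genes passed in cell 1, 1.94% in cell 2, 1.75% in cell 3 and 1.8% in cell 4. The count has a ceiling, since for 1529 of 17657 genes the mixer level left less than 2 units below the highest level reached in a cell.

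The list of migrating and young neurons had 33 genes measured in all 4 cells, of which 12 were detected in all and 6 in none. In cells 1 to 4 they numbered 21 of 34, 26 of 37, 22 of 37 and 13 of 36. Tubb3, the neuronal β-tubulin, had log2 levels of 15.39, 15.30, 14.07 and 15.42 in cells 1 to 4, saturated in all but cell 3, against 13.92 to 14.40 on the mixer arrays. Dcx, the doublecortin of migrating neurons, had 13.79, 13.64, 13.34 and 11.55, so cell 4 was the lowest and cells 1 to 3 lay inside or just above the mixer range of 13.22 to 13.70. Both genes were detected in every cell, but for Tubb3 an excess of 2 log2 units over the mixer arrays would lie above the highest level reached in any cell, 15.98, and Dcx did not reach that excess. At 3 background SDs, or with the same number of brightest probes called in each cell, Dcx was detected in 3 cells and Tubb3 in 4. The Dcx level of cell 4 lay near the lowest detected level of any probe in that cell, 11.28.

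By the excess over adult RNA, 2 of 33, 0 of 36, 2 of 36 and 1 of 35 genes of this list passed in cells 1 to 4. They were Stmn1 in cells 1 and 3, Sox11 in cell 1, Elavl2 in cell 3 and Marcks in cell 4. Stmn1, a microtubule-destabilising protein of young neurons, had 15.68, 12.13, 15.54 and 12.97 in cells 1 to 4, against 9.37 to 11.20 on the mixer arrays. All 4 cells were above the mixer range, and cells 1 and 3 were close to the explant mean of 15.63 ± 0.0639 (SD, n = 3). Sox11, a transcription factor of newly formed neurons, had 15.31, 11.92, 14.34 and 13.61, against 11.65 to 12.41 on the mixer arrays. Cells 1, 3 and 4 were above that range and cell 2 lay inside it, while a second, dimmer Sox11 probe ran at 11.62, 11.44, 11.78 and 9.91 and put cell 4 lowest. Marcks, an actin-binding substrate of protein kinase C, had 14.72, 12.33, 14.82 and 15.23, and only cell 4 passed the excess of 2 units over the mixer arrays.

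Gap43, a growth cone protein, had 14.65, 14.77, 14.13 and 9.87, so cell 4 alone lacked detectable signal. Elavl3, a neuronal RNA-binding protein, had 15.05, 15.13, 15.33 and 12.92, and its second probe placed cell 4 lowest as well, at 11.80 against 13.57 to 13.99 in cells 1 to 3. Tubb2b, a β-tubulin of the developing brain, was detected in all cells at 15.51, 14.47, 15.92 and 13.66. Erbb4, the neuregulin receptor of migrating interneurons, was detected in all cells at 14.64, 14.08, 14.29 and 13.00, but its second probe in cell 3 only, at 11.15, against 8.13, 7.67 and 8.75 in cells 1, 2 and 4. The mixer arrays ran at 13.93 to 14.74 for Gap43 and 14.94 to 15.55 for Elavl3. For Tubb2b they ran at 12.98 to 14.32 and for Erbb4 at 13.72 to 14.28. Elavl2 was detected in cell 3 alone, at 11.49, against 7.86 to 9.18 in the other cells. Of genes abundant in the explants, Mapt, Dpysl3, Dpysl5 and Pafah1b1 were detected in no cell.

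Among genes of the GABAergic lineage, 3 of 8 measured in all cells were detected in all 4 and 1 in none, and in cells 1 to 4 the list numbered 6 of 10, 6 of 9, 6 of 10 and 4 of 9. Dlx2, a homeobox factor of the ganglionic eminences, had 12.58, 14.64, 12.40 and 13.97 in cells 1 to 4, against 13.13 to 13.49 on the mixer arrays, so cells 2 and 4 were above the adult RNA and cells 1 and 3 below it. Its partner Dlx1 was detected in cell 4 alone, at 12.24, with 9.25 in cell 1 and 9.07 in cell 3 and no measurement in cell 2. The level in cell 4 lay inside the mixer range for Dlx1, 10.62 to 13.71. Gad1, which makes GABA, was detected in cell 2 alone, at 12.19, and ran between 9.76 and 10.67 in the other cells. The level in cell 2 lay inside the mixer range for Gad1, 10.74 to 12.27. Abat, which degrades GABA, had 14.33 in cell 3, against 8.28, 8.10 and 7.81 in cells 1, 2 and 4 and 7.29 to 8.43 on the mixer arrays. Abat was also undetected on all explant arrays, where it averaged 9.54 ± 0.402 (SD, n = 3).

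None of the 6 CGE identity genes measured in all cells was detected in all 4. In cells 1 to 4 the list numbered 5 of 8, 6 of 8, 3 of 6 and 0 of 7. Nr2f2, the nuclear receptor COUP-TFII, had 15.12 in cell 2, against 8.86, 8.36 and 10.08 in cells 1, 3 and 4 and 8.78 to 9.56 on the mixer arrays. Cell 2 was close to the explant mean of 14.65 ± 0.154 (SD, n = 3) and the other cells did not exceed the detection limit, but the second Nr2f2 probe was not measured in cell 2. Sp8, a zinc-finger factor, was detected in cells 1 to 3 at 11.43, 10.88 and 12.12 and not in cell 4 at 10.88. Cells 2 and 4 thus had the same Sp8 level, but the lowest detected level of any probe was 10.11 in cell 2 and 11.28 in cell 4. Prox1, a homeobox factor kept by CGE-derived interneurons, was detected in cells 1 to 3 at 13.50, 13.01 and 11.18 and not in cell 4 at 10.62, within or below a mixer range of 12.11 to 13.93. Nr2f1 was detected in cells 1 and 2, and Htr3a, the ionotropic serotonin receptor, in cells 1 to 3. With the 95th percentile of blank spots as limit, which 13224 probes exceeded in every cell, Sp8, Prox1, Nr2f1 and Htr3a were detected in all 4 cells. With the same number of brightest probes called in each cell, Sp8 was detected in 1 cell, Prox1 and Htr3a in 2 and Nr2f1 in 3. At 3 background SDs Prox1 was detected in 2 cells, and the counts of Sp8, Nr2f1 and Htr3a did not change. Since Sp8, Prox1, Nr2f1 and Htr3a were also detected on mixer arrays, only the Nr2f2 signal of cell 2 passed the excess over adult RNA.

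**Figure D5:**
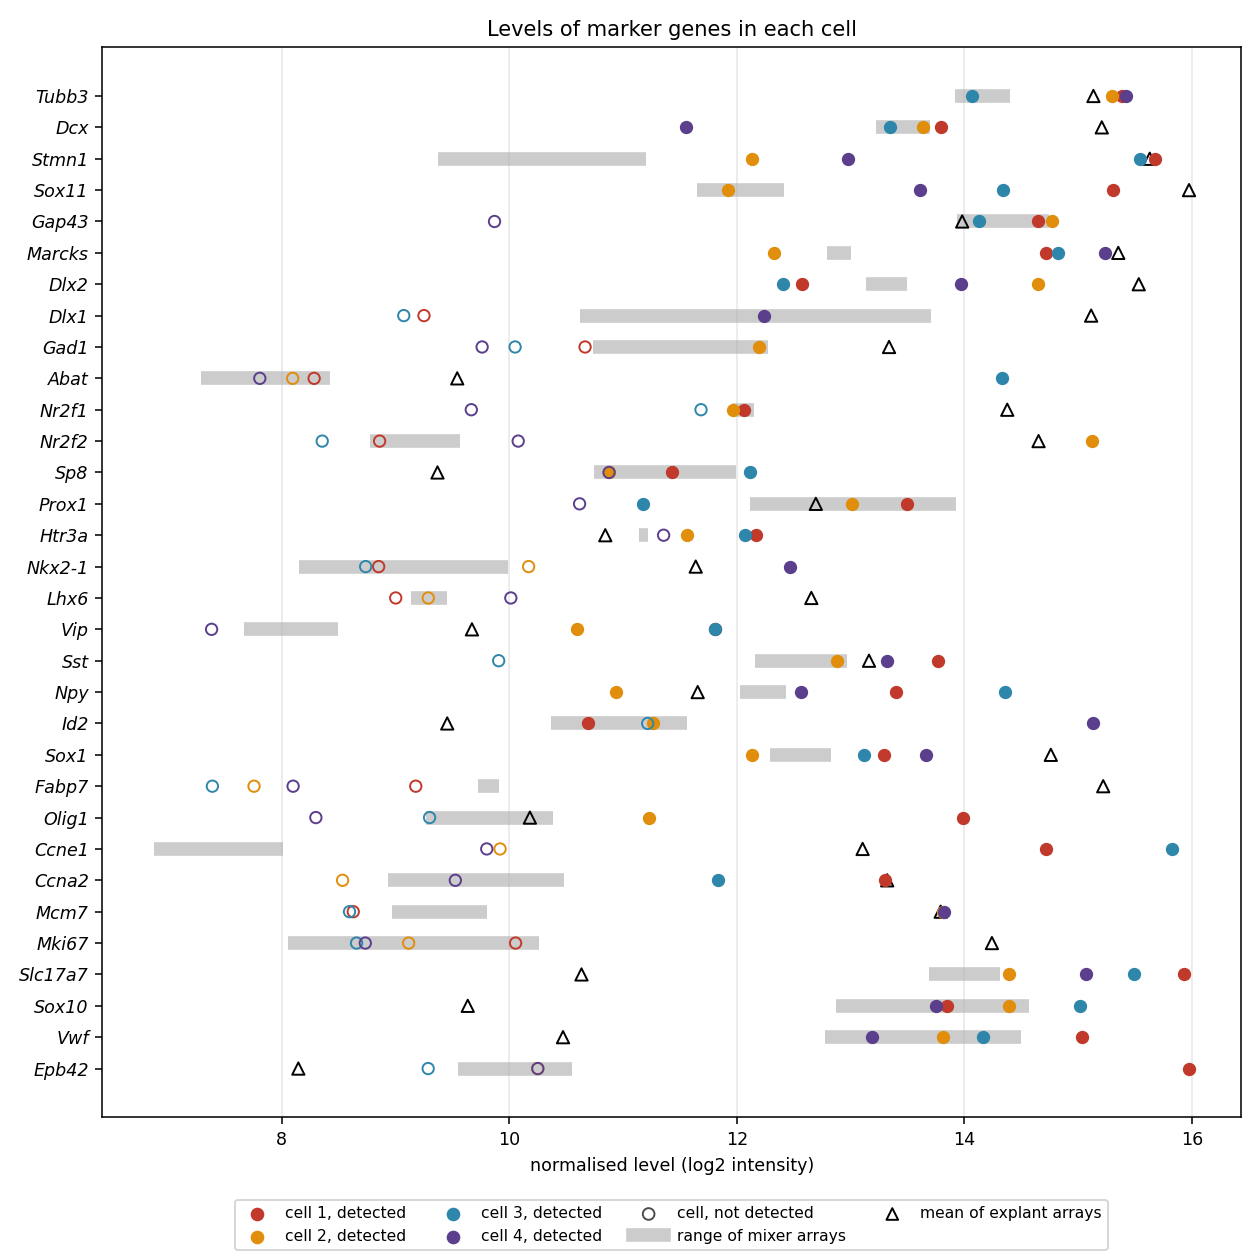
Normalised log2 level (horizontal axis) of marker genes (rows) in each cell, filled where detected and open where not; the grey bar spans the mixer arrays and the triangle is the mean of the explant arrays. Nr2f2 stands out in cell 2 and Abat in cell 3, Mcm7 in cells 2 and 4 and Ccne1 in cells 1 and 3, whereas Dcx, Sp8 and Prox1 lie within or near the grey bar in most cells.

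MGE identity genes were detected at a like frequency, 4 of 8, 4 of 7, 4 of 7 and 2 of 8 in cells 1 to 4. Nkx2-1, the factor that specifies the MGE, had 12.47 in cell 4, against 8.85, 10.17 and 8.74 in cells 1 to 3, and passed the excess over a mixer range of 8.15 to 9.99. Lhx6, which acts downstream of Nkx2-1, was not detected in cells 1, 2 and 4 and was not measured in cell 3. Satb1, a chromatin organiser, was detected in all cells at 13.83, 13.16, 13.49 and 14.78, with 13.39 to 14.18 on the mixer arrays. Other genes of the list went the other way. Lhx8, Sox6 and Maf were detected in cells 1 to 3 and not in cell 4, where Lhx8 had 10.07 and Sox6 9.01. No CGE identity gene was detected in cell 4, the cell with Nkx2-1. That cell also had the lowest share of MGE identity genes and of all named genes detected.

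Interneuron subtype genes were detected at 10 of 17, 9 of 16, 5 of 16 and 6 of 17 in cells 1 to 4, and 2 of 15 measured in all cells were found in all. Those 2 were the neuropeptide genes Npy, at 13.40, 10.93, 14.35 and 12.56, and Tac1, at 13.13, 13.95, 12.22 and 12.24. The mixer arrays ran at 12.03 to 12.43 for Npy and at 13.00 to 14.45 for Tac1. Vip, the peptide of a CGE-derived subtype, had 11.81, 10.59 and 11.80 in cells 1 to 3 and 7.38 in cell 4, against 7.67 to 8.49 on the mixer arrays. Cells 1 to 3 therefore all passed the excess over adult RNA, whereas the explant arrays did not detect Vip and averaged 9.67 ± 0.284 (SD, n = 3). At 3 background SDs, or with the same number of brightest probes called in each cell, Vip was detected in 2 cells. Its level in cell 2 lay near the lowest detected level of that cell, 10.11, and it had 1 probe. Sst, a peptide of MGE-derived interneurons, was detected in cells 1, 2 and 4 at 13.77, 12.88 and 13.32 and not in cell 3 at 9.91. Calb2, the calretinin gene, was detected in cells 1 to 3. On the mixer arrays Sst ran at 12.16 to 12.96 and Calb2 at 11.17 to 15.38. Id2, a transcriptional inhibitor, reached 15.13 in cell 4, against 10.69, 11.26 and 11.22 in cells 1 to 3. Pvalb, Lamp5, Penk and Crhbp were detected in no cell where they were measured.

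Progenitor genes were detected at 9 of 23, 11 of 19, 7 of 21 and 6 of 23 in cells 1 to 4, with 5 of 17 in all cells and 6 in none. Sox1, a factor of neural stem cells, was detected in every cell at 13.29, 12.14, 13.12 and 13.67, as were Notch2 at 12.48 to 13.56, Prom1 at 13.09 to 14.38, Olig2 at 10.71 to 12.98 and Id3 at 11.49 to 15.07. These 5 genes were detected on all 3 mixer arrays too. Olig1, an oligodendrocyte and progenitor factor, had 13.99 in cell 1 and 11.23 in cell 2, against 9.30 and 8.30 in cells 3 and 4, and only cell 1 passed the excess over adult RNA. Some progenitor genes with high explant levels were undetected in the cells. Fabp7, a radial glial lipid carrier, had 9.18, 7.76, 7.39 and 8.10, against 15.22 ± 0.151 on the explant arrays (SD, n = 3). Msi1 and Vim were detected in no cell either.

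Cell cycle genes gave 13 of 30, 16 of 30, 11 of 30 and 10 of 29 in cells 1 to 4, and 4 of 29 were detected in all cells and 11 in none. By the excess over adult RNA, 3 of 30, 2 of 30, 2 of 30 and 4 of 29 passed, and they were Ccna2, Ccnb1 and Ccne1 in cell 1, Mcm3 and Mcm7 in cell 2, Ccnb1 and Ccne1 in cell 3 and Mcm2, Mcm3, Mcm7 and Tyms in cell 4. Ccne1, the cyclin of the G1 to S transition, had 14.72 in cell 1 and 15.82 in cell 3, against 9.92 and 9.80 in cells 2 and 4 and 6.88 to 8.01 on the mixer arrays. Ccnb1, a mitotic cyclin, passed the excess in the same cells, at 11.32 and 11.68, but was also detected in cell 2, at 10.15, above the highest mixer array at 9.30, and had 8.56 in cell 4. Ccna2 had 13.30 in cell 1 and 11.83 in cell 3, with 8.53 and 9.53 in cells 2 and 4. Of the 6 subunit genes of the replicative helicase, Mcm3 and Mcm7 were detected in cells 2 and 4 only, Mcm2 in cells 1, 2 and 4, and Mcm4, Mcm5 and Mcm6 in no cell that measured them. Mcm7 had 13.81 in cell 2 and 13.82 in cell 4, against 8.63 and 8.60 in cells 1 and 3, and Mcm3 had 11.84 in cell 2 and 12.14 in cell 4, against 8.08 and 8.97 in cells 1 and 3. Mcm2 had 15.68 in cell 4, against 11.15, 11.82 and 8.33 in cells 1 to 3.

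Further members of the list had other patterns. Tyms, which makes thymidylate, had 14.88 in cell 4 and 12.89 to 13.05 in cells 1 to 3, though its second probe was detected in no cell. Cdk1, the mitotic kinase, was saturated in every cell at 15.08 to 15.57, and the mixer arrays ran at 14.27 to 15.19. Mki67, the common marker of dividing cells, was detected in no cell at 8.66 to 10.06, while the explant arrays averaged 14.24 ± 0.174 (SD, n = 3).

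Some markers of cell types other than CGE progenitors and interneurons were detected in all cells as well. Slc17a7, a vesicular glutamate transporter of cortical excitatory neurons, had 15.93, 14.39, 15.49 and 15.06 in cells 1 to 4, against 13.69 to 14.32 on the mixer arrays. Neurog1, a proneural factor of the pallium, had 14.63, 15.53, 14.51 and 14.82. Sox10 of the oligodendrocyte and neural crest lineages ran at 13.75 to 15.02, the dopamine receptor gene Drd2 at 13.04 to 14.81, Ppp1r1b of striatal neurons at 13.66 to 15.21, Vwf of endothelium at 13.18 to 15.03 and Kcnj8 of pericytes at 12.96 to 14.53. All but Neurog1 and Ppp1r1b were undetected on every explant array that measured them, and all 7 were detected on all 3 mixer arrays. Other members of the same lists were detected in no cell, such as Neurog2, Neurod1, Drd1, Six3, Mog, Pdgfra and Pecam1. Of genes measured in all 4 cells, 4 of 14 pallial genes were detected in all and 3 in none. The counts were 4 and 3 of 9 for striatal genes, 2 and 4 of 10 for oligodendrocyte genes, and 3 and 3 of 11 for endothelial and pericyte genes.

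By list, pallial and glutamatergic genes were detected at 11 of 15, 10 of 15, 10 of 14 and 5 of 15 in cells 1 to 4. Genes of the lateral ganglionic eminence and striatum gave 6 of 11, 6 of 10, 7 of 11 and 4 of 10, oligodendrocyte genes 5, 4, 5 and 3 of 10, and astrocyte genes 3 of 9, 6 of 9, 3 of 8 and 3 of 9. Microglial genes gave 4 of 12, 5 of 10, 2 of 12 and 2 of 11, and endothelial and pericyte genes 5 of 11, 9 of 12, 7 of 11 and 3 of 12. Mature neuron and synapse genes gave 10 of 17, 11 of 17, 5 of 15 and 5 of 17, and immediate early and stress genes 4 of 12, 8 of 12, 3 of 10 and 3 of 12. Progenitor, neuron and subtype genes were thus detected in a cell together with genes of lists from other lineages. The shares of the lists just given varied, in cell 3 from 16.7% for microglial genes to 71.4% for pallial genes. Housekeeping genes were detected in all 4 cells in 9 of 18 cases, and in cells 1 to 4 at 14, 13, 9 and 10 of 18.

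Erythroid genes were detected at 6, 3, 1 and 4 of 7 in cells 1 to 4. Epb42, a protein of the red cell membrane skeleton, was saturated in cell 1 at 15.98, against 10.25, 9.29 and 10.25 in cells 2 to 4. The anion exchanger gene Slc4a1 was detected in no cell, and the embryonic globin Hba-x was detected in all 4 at 11.62 to 12.65 and on all mixer arrays. The part of other cells' RNA in these signals was not tested.

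The genes with the highest minimum level among those detected in all 4 cells and saturated in none were ranked on probe levels, which do not order the genes by transcript amount. They were Tsga13, G3bp2, Atraid, Ugt2a3, Trim39, Mtnr1b, Sema3c and Lrrc28, with lowest levels of 14.06 to 14.29. G3bp2, an RNA-binding protein of stress granules, had 14.43, 14.24, 14.67 and 14.82 in cells 1 to 4, and Mtnr1b, a melatonin receptor, had 14.32, 14.13, 14.76 and 14.86. The mixer arrays lay slightly lower, at 13.60 to 14.56 for G3bp2 and 13.79 to 14.44 for Mtnr1b. Tsga13, Trim39 and Mtnr1b were detected on no explant array, and G3bp2 and Atraid on all 3. Over all 4127 probes detected in every cell, the median distance between the highest and the lowest cell was 1.31 log2 units, and 19.4% spanned 2 units or more.

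Genes detected in 1 cell only were named by the size of their lead over the next cell, so the leads are descriptions. In cell 1 they were Map3k1, a signalling kinase, Sdr42e1, Epb42, Pdzd8 and Plscr2. Map3k1 had 15.94 in cell 1, against 7.75, 9.70 and 6.94 in cells 2 to 4, and was at least 25.3-fold above every other cell when undetected levels were put at the lowest detected level of their array. In cell 2 they were Nvl, Zbtb39, Inpp5f, Tbx2 and Phex. Tbx2, a T-box factor, had 14.57 in cell 2, against 6.67, 8.27 and 6.21 in cells 1, 3 and 4, and at most 9.63 on the mixer arrays. Nvl, an ATPase of ribosome assembly, had 15.94 in cell 2, against 8.16, 8.29 and 8.94 in cells 1, 3 and 4, though a mixer array reached 15.18.

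In cell 3 the genes were Aplf, Anxa1, Birc6, Abat and Sod1. Anxa1, a phospholipid-binding annexin, had 14.38 in cell 3, against 7.75, 7.35 and 7.81 in cells 1, 2 and 4, at least 8.59-fold, with mixer arrays at or below 8.12. Sod1, the cytosolic superoxide dismutase, had 15.47 in cell 3, against 8.35, 8.40 and 9.67 in cells 1, 2 and 4, while all mixer and explant arrays detected it. In cell 4 they were Meig1, Slbp, Zfp367, Abr and Mybbp1a. Slbp, which binds the stem-loop of replication-dependent histone transcripts, had 15.88 in cell 4, against 8.27, 9.31 and 9.25 in cells 1 to 3, at least 33.0-fold. Meig1, known from male meiosis, had 15.98 in cell 4, against 9.06, 9.17 and 8.76 in cells 1 to 3, and was detected on no mixer or explant array.

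Of the genes at least 4-fold above the next cell and detected in 1 cell only, 13 of 40 in cell 1 (32.5%), 27 of 85 in cell 2 (31.8%), 37 of 81 in cell 3 (45.7%) and 57 of 108 in cell 4 (52.8%) were detected on at least 1 explant array. Among all 12214 candidate genes measured there the share was 40.8%. On at least 1 mixer array 55.8%, 63.5%, 47.1% and 56.9% were detected, against 69.7% of all candidates.

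Genes whose brightest probe was undetected in a single cell were named by their gap, with smaller gaps for cell 1 than for the others. Tardbp, the RNA-binding protein TDP-43, had 15.98, 14.42 and 15.97 in cells 1, 3 and 4 and 8.44 in cell 2 by its brighter probe, but its second probe was detected in cell 2. Rps2, a protein of the small ribosomal subunit, had 15.31, 15.81 and 15.39 in cells 1, 3 and 4 and 9.40 in cell 2. Tra2b, a splicing regulator, was undetected in cell 2 alone as well. Asxl3, a chromatin regulator, had 14.41, 13.98 and 14.93 in cells 1, 2 and 4 and 8.18 in cell 3, where Lmbr1l and Morf4l1 were missing too. Agrn, the proteoglycan agrin, had 13.58, 13.94 and 13.40 in cells 1 to 3 and 8.40 in cell 4, where Ceacam15 and Nt5c2 were missing as well. In cell 1 the largest gap was that of Mcl1, a survival factor of the Bcl-2 family, with 12.30, 12.75 and 14.15 in cells 2 to 4 and 9.33 in cell 1, and Psap and Pkhd1 were the other genes named.

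Several genes divided the cells 2 against 2. Psma7, a proteasome subunit, had 15.22 in cell 2 and 15.83 in cell 4, against 8.21 and 7.03 in cells 1 and 3, and Mcm7 shared this division. Supt16, a histone chaperone subunit, had 15.91 in cell 3 and 15.96 in cell 4, against 10.22 and 8.76 in cells 1 and 2, as did Snapin and the ribosomal protein gene Rpl34. Brms1l had 15.63 in cell 1 and 15.65 in cell 3, against 7.02 and 10.20 in cells 2 and 4. Actg1, the cytoplasmic γ-actin, had 14.96 in cell 1 and 12.86 in cell 4, against 9.68 and 8.65 in cells 2 and 3. Actg1 was detected on all mixer and explant arrays, while cells 2 and 3 had no detectable signal.

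Most probes above the mixer arrays were so in 1 cell only. At least 2 log2 units above every mixer array were 952 probes in 1 cell, 136 in 2, 39 in 3 and 2 in all 4. Cells 1 and 3 shared 72 such probes, 24.2% of those in cell 1 and 21.2% of those in cell 3, and cells 1 and 2 shared 71. Cell 4 shared 19 to 28 with each of the others, 5.12% to 9.43% of those in either cell. Over all named genes, 1.52% to 1.94% passed in a cell, so these overlaps were above that share. All cells were set against the same mixer arrays, and the cause of the overlap was not tested. Detection on all 3 explant arrays was found for 13.7% of probes above the mixer arrays in no cell, 17.7% in 1 cell, 20.0% in 2, 27.6% of 29 in 3 and 0 of 2 in all 4. The 2 genes above the mixer arrays in all 4 cells were Hspa12a, a member of the Hsp70 superfamily, at 13.98, 15.25, 14.82 and 13.71, and Ulk2, an autophagy kinase, at 12.21, 12.45, 13.09 and 12.20. Hspa12a ran at 7.72 to 9.04 on the mixer arrays and Ulk2 at 7.15 to 8.77.

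Of the 27 plainly named genes above the mixer arrays in 3 or 4 cells, those given here were chosen after their values were seen. Dek, a chromatin protein, had 15.57, 15.97 and 13.13 in cells 1 to 3 and 11.01 in cell 4, against 9.88 to 10.49 on the mixer arrays and 13.89 ± 0.0827 on the explant arrays (SD, n = 3). Dbn1, the actin-binding protein drebrin of young neurites, had 15.74, 14.71 and 14.46 in cells 1 to 3 and 12.27 in cell 4, against 12.09 to 12.46 on the mixer arrays. Tra2b passed in cells 1, 3 and 4, as did the proteasome gene Psmb7 and Rps2, and Vip in cells 1 to 3. Both Dek and Dbn1 were detected on all 3 explant arrays, but others of the 27 were detected on none, such as Hoxb6, Arl4d, Crebl2, Gcnt1, Sord, Ulk2 and Vip. Hoxb6 passed in cells 1 to 3, at 11.12, 10.89 and 12.41, against 6.80 to 8.75 on the mixer arrays. Of the probes that passed in 3 cells, 27.6% of 29 were detected on all 3 explant arrays.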

How the data were processed

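RNA was measured on 16 spotted 1-colour arrays, of which the 4 of single cells are described. Per the file headers, the deposited foreground and background intensity of each of 25344 spots was written by the Mapix software at 635 nm, with no background subtraction or normalization, and stops at 65535. The deposited spot marks (bad, not found) are on no measurement scale. The series table's signal values, deposited by the authors on a linear scale by steps the labels do not state, served only as an alternative. Per the labels' protocols, labelled DNA was made with random hexamers.

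Saturated spots were kept and other spots with the mark for bad were dropped. The values were corrected by normexp (offset 50), averaged per probe in log2 and quantile-normalised over the 16 arrays (limma 3.58.1, R 4.3.3). A probe was detected where the foreground median exceeded the background median by 2 background SDs. With several probes, the brightest over all arrays gave a gene's level. Symbols came from the platform table and RefSeq for 21041 probes. Spots named Actb carry an accession of another gene and are not reported. Members, lists and tests were chosen with earlier results of these data known. Named genes were, by rule, the 8 with the highest minimum level among those detected in all cells and saturated in none, 5 per cell detected there alone, 3 per cell detected in the others alone and 3 per 2-against-2 division, by gap, besides members of the lists named above. Not every gene the rule allows is printed. A lower bound of a fold sets an undetected level at the lowest detected level of its array. Fits across genes were not made, since each cell is 1 array, and likeness was tested by exact permutation (scipy 1.17.1). Pair counts were tested on simulated data. Alternatives were other detection limits, scalings and thresholds and each array left out. The excess over the mixer arrays, its ceiling and the median-centred values beside Gapdh were added after seeing the data.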

Additional observations from a re-analysis of the deposited data

Results flagged for a closer look

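Of 78 values compared over the 4 cells (detected shares and levels of picked list genes), 12 had a cell far from the other 3 by Dixon's criterion. Chance meets this criterion in about 1 of 20 groups that were not chosen by their values. These genes were picked with earlier results of the data known, so 12 of 78 cannot be read against that rate. Cell 4 had the low value for the percent of pallial and glutamatergic genes detected (33.3%, against 66.7% to 73.3%), and cell 2 the high value for astrocyte genes (66.7%, against 33.3% to 37.5%). On the log2 scale, cell 4 was low for Gap43 (9.87, against 14.13 to 14.77), Elavl3 (12.92, against 15.05 to 15.33, which are saturated), Nr2f1 (9.67, against 11.68 to 12.07) and Drd2 (13.04, against 14.56 to 14.81). It was high for Tyms (14.88, against 12.89 to 13.05), Id2 (15.13, against 10.69 to 11.26) and the immediate early gene Egr1 (13.64, against 11.37 to 11.64). Cell 3 was low for Tubb3 (14.07, against 15.30 to 15.42, which are saturated) and high for Abat (14.33, against 7.81 to 8.28). Cell 1 was high for Epb42 (15.98, against 9.29 to 10.25). Abat and Epb42 were also chosen for their lead in 1 cell, so their place here restates that choice. Saturation limits the upper values of Gap43 and Drd2 in cells 1 and 2 as well, and those of Id2 in cell 4 and Epb42 in cell 1. Of these 12 values, 8 concern cell 4, which was scanned in its own session.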

How the results depend on the processing

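No paired analysis was possible because each cell is 1 array, no result is a test between groups sharing a source, and replicate numbers do not pair arrays. The 4127 probes detected in all cells and 3038 in 1 cell only became 13224 and 1089 with the 95th percentile of blank spots as limit, and 4308 to 6443 and 3324 to 4224 with a cell left out. The mean share of probes 4-fold apart, 11.3% for cells 1 to 3 and 22.4% with cell 4, was 4.95% and 10.8% without background correction, 16.5% and 29.4% with median centring, and 14.9% and 29.4% with quantile normalisation of the 4 cells alone. It was 4.56% and 9.55% at 3 log2 units, 7.61% and 14.8% over all probes, 4.82% and 8.59% over probes detected in both cells, and 16.5% with cell 4 in the series-table values; leaving out a cell gave 9.29% to 14.9% and 22.2% to 22.6%. In all of these, pairs with cell 4 had the higher share. The differences between cells and mixer arrays stayed negative under every alternative run; leaving out an array gave -12.8 to -3.43 percentage points in detected share, -0.107 to -0.00134 in r and -13.0 to -0.131 points in shared probes. Over probes detected on all 7 arrays the difference in r was -0.14 (exact p = 0.0571, the smallest possible). The 15 genes of the 6 lists other than migrating neurons found in all cells became 9 at 3 background SDs, 9 with equal numbers of brightest probes, 53 with the blank limit and 15 to 31 with a cell left out, and the 12 migrating neuron genes 26 with the blank limit and 12 to 18 with a cell left out. By the excess over mixer arrays, chosen after seeing the data, 0 genes of either group of lists were called in all 4 cells, but 3 of 11 migrating neuron genes and 4 of 15 others could not pass because the mixer level lay too near the top of the scale. The gaps of named genes, which were chosen for their size, moved with the scaling: without background correction that of Lmbr1l was 3.08 log2 units in place of 5.58 and that of Psap 0.95 in place of 1.80. For 56 list genes, the number of cells detected changed for 10 at 3 SDs, 20 with the blank limit and 16 with equal numbers. The cause of these shifts was not tested.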
